A study of Homo sapiens with 6 samples.

Results

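The genes described here encode the enzymes that build, trim and cap glycans, measured in Kasumi-1, a cultured line from acute myeloid leukaemia with the t(8;21) translocation. They were chosen by symbol: the protein-coding rows of the deposited comparison whose names belong to the main glycosyltransferase, sulfotransferase, mannosidase, sialidase, ALG, PIG, DPM, POMT, POMGNT and STT3 families. The rule found 76 of the 7983 listed genes, and they were sorted into 17 classes by textbook function. The knockout cells carried a CRISPR/Cas9 knockout of SETD8 (sgSETD8, 3 libraries, genotype SETD8 knockout), and the controls carried a non-targeting guide (sgNT, 3 libraries, genotype WT). All 6 libraries came from the same line under one culture protocol. Whether a numbered library is a culture, a clone or a guide of its own is not stated, and the p-values therefore reflect a spread among these libraries that may be technical. GENCODE release 29 holds 193 protein-coding genes with such names, and the 117 outside the table were not analysed here. In the table the largest unadjusted p of the authors' own test was 0.049998, so a member was likely to pass a test on these 6 libraries before it was looked at.

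Values are normalized read counts, that is reads over the size factor of the library. Levels per kilobase divide them by the gene length deposited with the values. That length may differ from the transcript expressed, so such levels compare different genes only roughly. A log2 fold change sets knockout over control as a difference of mean log2 values, after adding 1 to each value. Adding 1 shrinks changes of genes with low counts. The result can still be larger in size than the authors' own, as for B3GALT4 (-0.75 here and -0.70 by the authors). SETD8 is the older name of KMT5A, the methyltransferase that monomethylates lysine on histone H4. KMT5A read 879.7, 933 and 939 in the knockout libraries, against 1190.5, 1212 and 1255 in the control libraries, lower in every knockout library (log2 fold change -0.41, adjusted p = 5.65e-05). All 7 markers written for the line (KIT, CD34, CD33, ANPEP, MPO, RUNX1 and RUNX1T1) were in the table, and they went both ways. CD33 (990.0 in knockout and 435 in control cells), ANPEP (268 in knockout and 106 in control cells) and RUNX1 (6691 in knockout and 4262 in control cells) were higher, KIT (43551 in knockout and 60704 in control cells) and MPO (1541 in knockout and 12254 in control cells) were lower, and CD34 (7818 in knockout and 7153 in control cells) and RUNX1T1 (3054 in knockout and 2760.3 in control cells) did not pass. Their summed level, in which KIT had the largest share, ran from 62733 to 64781 in the knockout libraries and from 85878 to 88887 in the control libraries. Of 7 markers written for other cell types, 3 were in the table, among them CD79A at 188 in knockout and 119 in control cells and EPCAM at 1936 in knockout and 1349 in control cells. The part of these markers in the results below was not tested. Reads in listed genes ran from 11721821 to 12557974 in the knockout libraries and from 10966349 to 11690249 in the control libraries.

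Most cell-surface and secreted proteins carry glycans. N-glycans are built on the lipid dolichol in the endoplasmic reticulum, moved to asparagine by oligosaccharyltransferase, and then trimmed, branched and capped in the Golgi. Mucin-type O-glycans, O-mannose glycans, glycosaminoglycans, glycolipids and glycosylphosphatidylinositol (GPI) anchors are made by separate sets of enzymes, and sialic acid, fucose and sulfate are added last. On blood cells these caps form the ligands of selectins and of sialic acid binding lectins.

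The glycan enzyme genes went in both directions, and their total level was nearly the same in both groups. Of the 75 members with a mean of at least 10 normalized counts, 41 were higher and 31 were lower in knockout cells with a Benjamini-Hochberg adjusted p under 0.05 from limma-trend, and 3 did not pass. In bulk RNA such as this, fewer cells that express a gene and less of its RNA per cell cannot be told apart. Among all 7516 tested genes 94.1% were called, 47.3% higher and 46.7% lower, so the share of members called is near the background. The median log2 fold change was 0.26 for the members and 0.14 for all tested genes. In 72 of the 75 members the groups did not overlap, beside 95.4% of all tested genes. A lack of overlap given for single genes below is to be read beside that share. Most differences were small: the log2 fold change was under 0.5 in size in 43 of the 75, from 0.5 to 1 in 28 and at least 1 in 4. The 4 are ST3GAL6, B3GNT9 and MAN2B1, which rose, and ST3GAL1, which fell. A called change of at least 1 was seen in 19.0% of all tested genes, 8.34% higher and 10.7% lower. Summed over the 76 members, the level was 18721, 18919 and 18528 per kilobase in the knockout libraries, against 18485, 18719 and 18893 in the control libraries. These sums overlap between the groups. The median coefficient of variation between the libraries of a group was 5.24% in knockout and 6.27% in control cells over the tested members, against 7.30% and 6.56% over all tested genes.

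**Figure D1:**
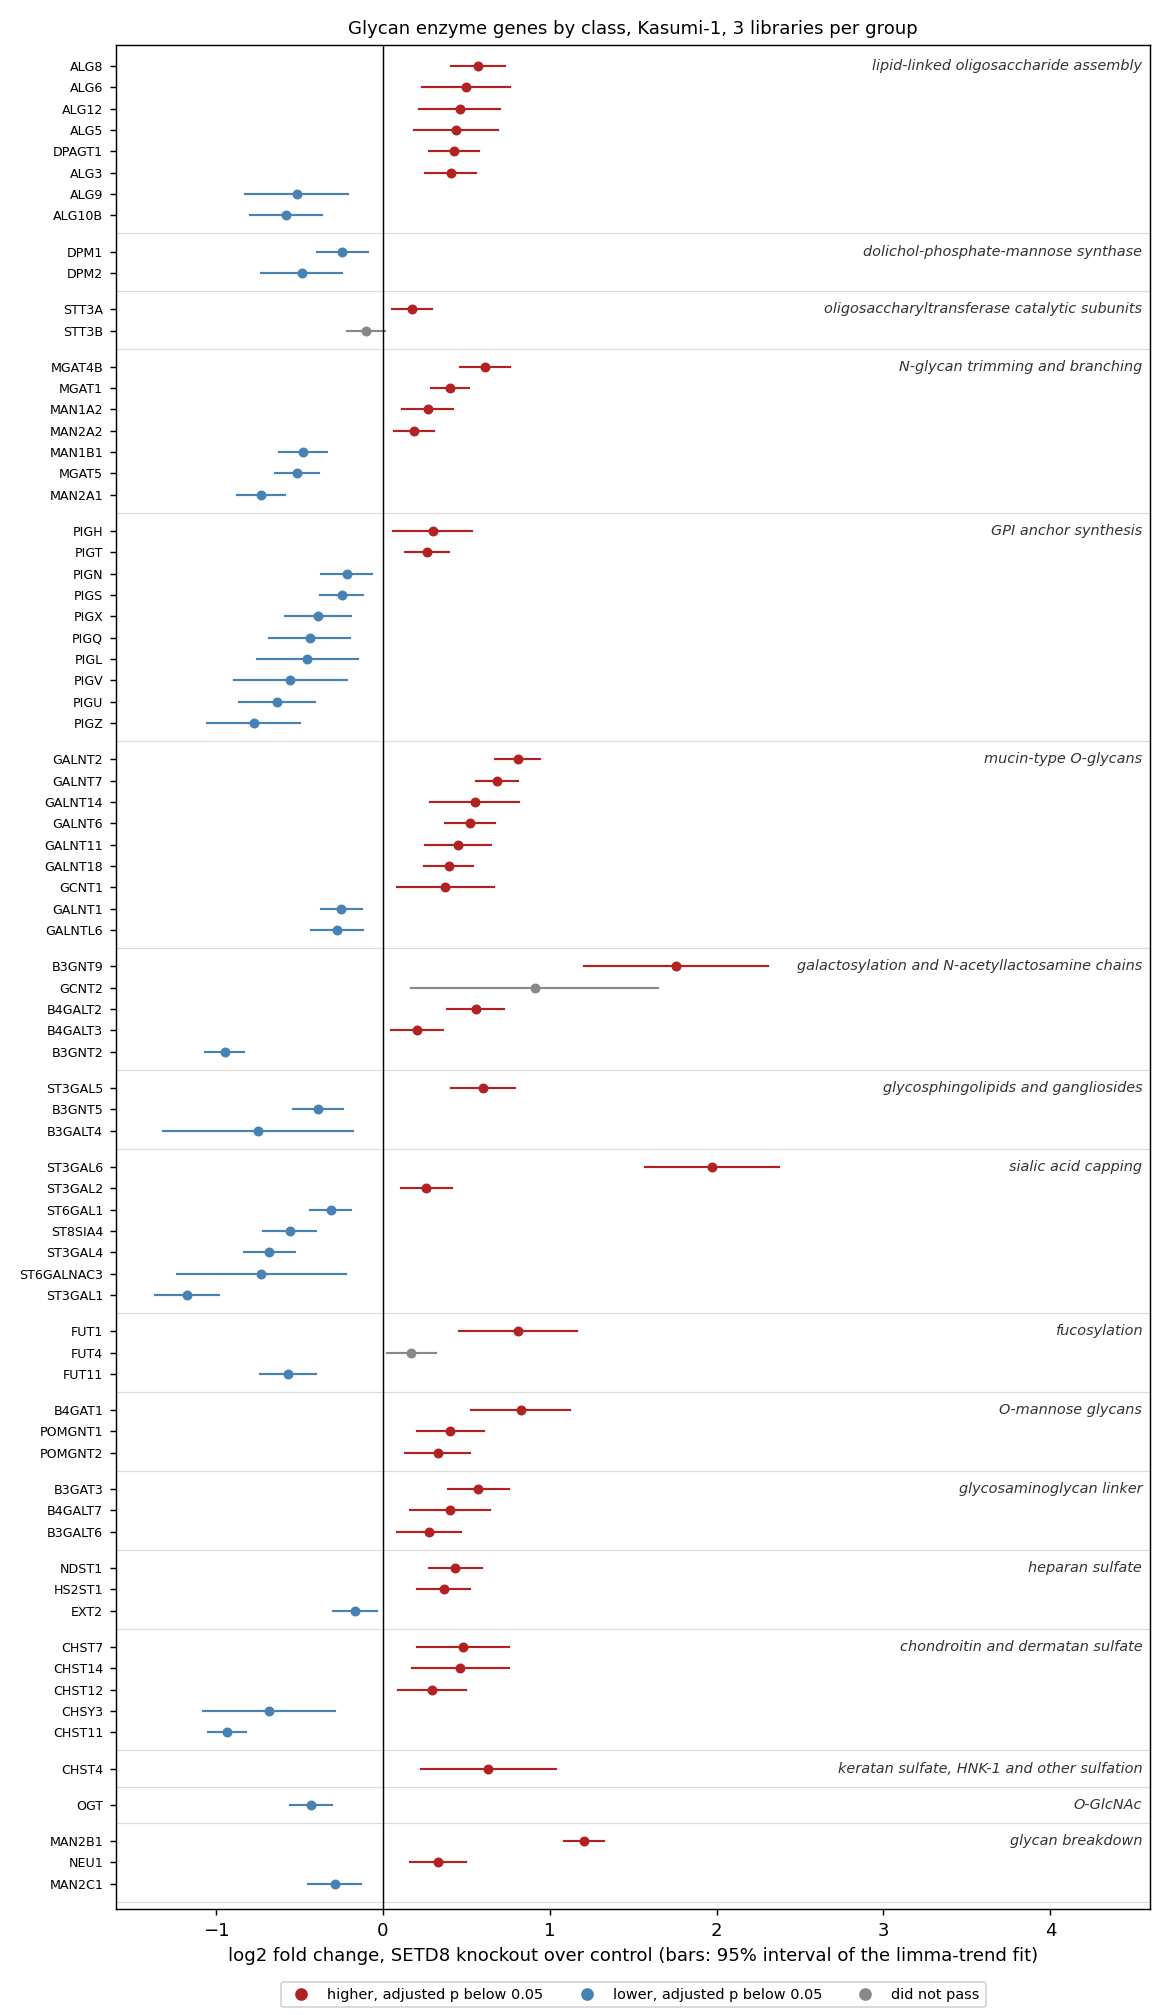
Log2 fold change of each tested glycan enzyme gene (horizontal axis, knockout over control) by class, with the 95% interval of the limma-trend fit as bars. The mucin-type class is mostly right of 0 and the GPI anchor class mostly left of it, while sialic acid capping holds both the highest tested member, ST3GAL6, and the lowest, ST3GAL1.

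Direction along the chromosomes varied in these cells, and each member is therefore set beside its neighbourhood, the median log2 fold change of the other tested genes within 5 Mb. Of the 41 higher members, 27 lay where that median was above 0 (65.9%, beside 72.5% of the higher genes over the whole table). Of the 31 lower members, 19 lay where it was below 0 (61.3%, beside 57.8% over the table). The other 26 called members, 14 higher and 12 lower, had a sign opposite to that median. For some of them the median was near 0, at -0.011 for ALG8, -0.043 for GALNT2 and 0.021 for ST6GALNAC3. With the neighbourhood median removed from the knockout libraries, 24 of the 41 higher and 16 of the 31 lower members passed in the same direction. Whatever their direction before, 27 members were then higher and 19 lower. Over all tested genes 2257 were then higher, in place of 3557, and 2448 lower, in place of 3513. Calls kept in the same direction were not counted over all genes. The median was subtracted as a fixed value, so the adjusted p-values of this setting carry none of its error. Values for this setting are given with the members whose calls ended. Removing instead the trend of the fold change with gene length ended the calls of 13 members: ALG5, ALG9, PIGH, PIGN, PIGQ, GALNTL6, B4GALT3, ST6GAL1, ST6GALNAC3, POMGNT2, B3GALT6, EXT2 and MAN2C1.

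**Figure D2:**
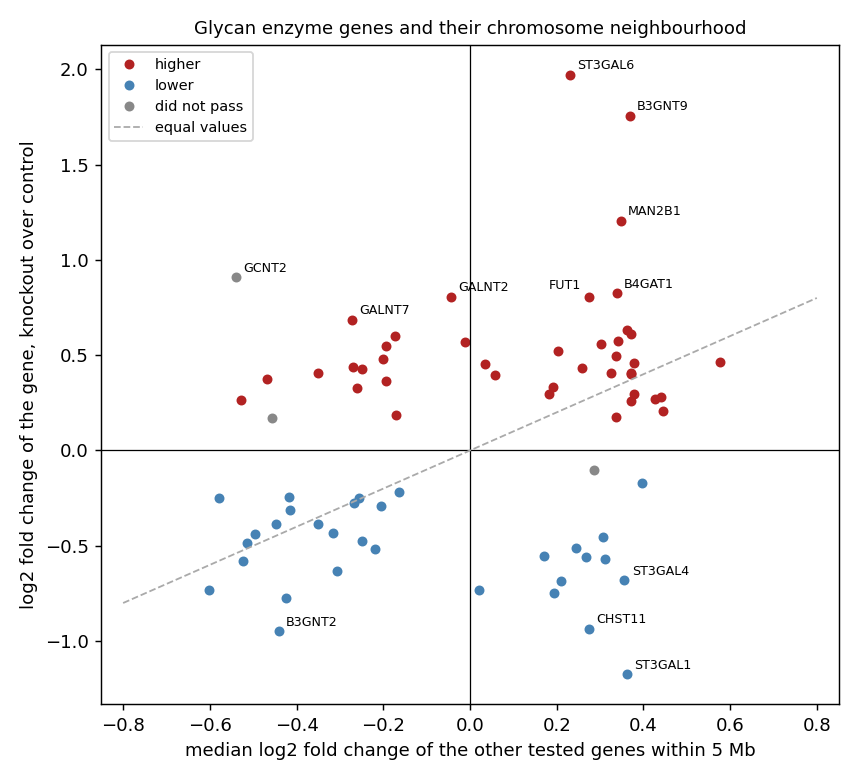
Log2 fold change of each tested glycan enzyme gene (vertical axis) against the median log2 fold change of the other tested genes within 5 Mb (horizontal axis), with a dashed line of equal values. ST3GAL1, CHST11 and ST3GAL4 fell where their neighbours had medians above 0. GALNT7 rose where the median was below 0 (-0.27), and GALNT2 where it was near 0 (-0.043).

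The promoters of 4 members with large changes, 2 in each direction, are shown as examples. Those of ST3GAL1 and B3GNT9, which also changed by at least 1 on the log2 scale, are not shown. They are the 100 bases before the RefSeq start (GRCh38.p14), 5′ to 3′ on the gene's strand, in lower case with each GC box (GGGCGG, searched on both strands) in capitals. ST3GAL6 (chr3:98732162-98732261, plus strand) and MAN2B1 (chr19:12666743-12666842, minus strand) rose, and B3GNT2 (chr2:62196015-62196114, plus strand) and CHST11 (chr12:104456848-104456947, plus strand) fell.
ST3GAL6: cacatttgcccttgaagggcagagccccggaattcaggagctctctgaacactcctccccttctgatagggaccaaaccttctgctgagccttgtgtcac
MAN2B1: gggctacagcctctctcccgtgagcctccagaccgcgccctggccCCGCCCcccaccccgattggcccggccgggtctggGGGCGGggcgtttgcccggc
B3GNT2: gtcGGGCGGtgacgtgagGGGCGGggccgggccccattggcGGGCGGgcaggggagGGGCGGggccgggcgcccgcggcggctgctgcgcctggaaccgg
CHST11: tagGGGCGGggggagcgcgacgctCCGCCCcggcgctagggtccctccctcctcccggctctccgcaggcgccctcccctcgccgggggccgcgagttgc
The stretch before ST3GAL6 held no GC box, while those of MAN2B1, B3GNT2 and CHST11 held 2, 4 and 2. In the 250 bases before the start, 21 of 34 higher and 21 of 28 lower members with a promoter in the RefSeq table held a GC box, beside 67.7% of the 5608 tested genes with one and 42.6% of all 35116 promoters. The promoter of ST3GAL4 (chr11:126355912-126356011, plus strand), which fell, is shown for its E-box (CACGTG, in capitals), the site of the MYC and USF families. A match is a run of letters and says nothing of binding.
ST3GAL4: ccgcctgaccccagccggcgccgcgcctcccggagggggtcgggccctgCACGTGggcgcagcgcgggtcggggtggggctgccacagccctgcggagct
An E-box was found in 3 of 34 higher and 3 of 28 lower members, beside 9.88% of tested genes. The core RUNX site TGTGGT was found in 0 higher members and 1 lower member, beside 7.72% of tested genes. The amino acid response element TGATGNAA was found in 1 higher and 0 lower members, beside 1.27%. The CCAAT box was found in 10 higher and 6 lower members, beside 35.2%, and the lysosomal CLEAR element, which contains CACGTG, in 0 and 0, beside 0.642%. Of the 64 members with a promoter, 51 had the 50 bases after the start inside a GENCODE transcript, and genes with several starts may use another one.

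**Figure D3:**
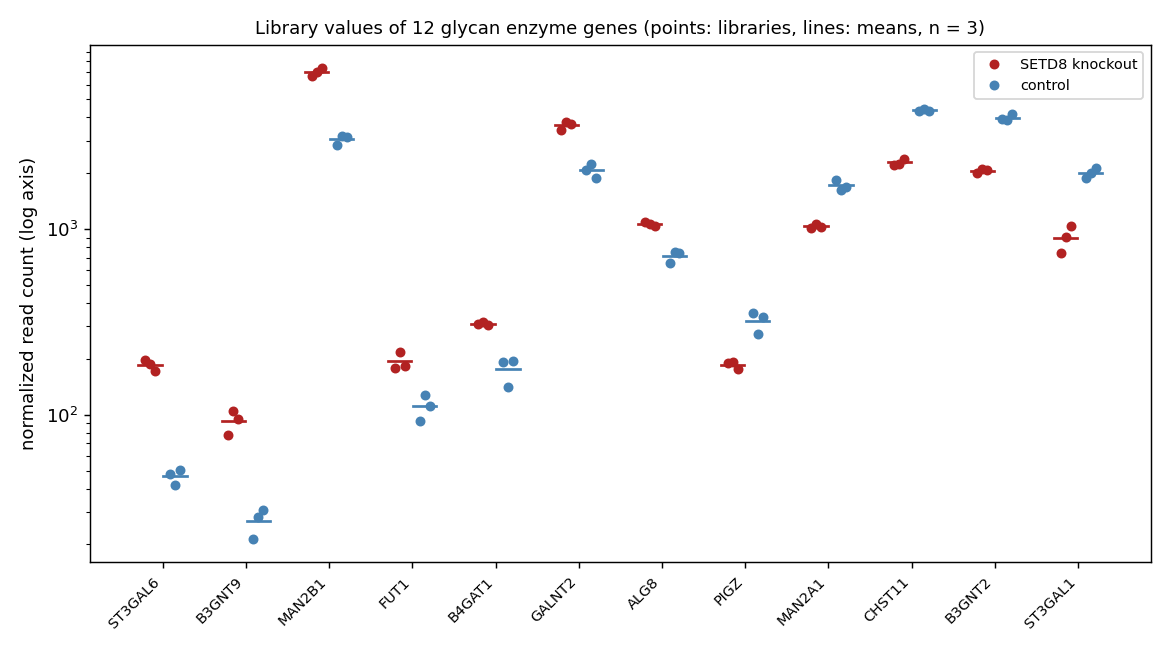
Normalized read counts (log axis) of 12 glycan enzyme genes in each library, knockout left and control right, with lines at the means (n = 3 each). The 12 genes were chosen for display. In each of them all 3 knockout libraries lie on one side of all 3 control libraries, as in 95.4% of all tested genes.

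Genes that assemble the lipid-linked oligosaccharide, the precursor of N-glycans, were mostly higher in knockout cells: 6 of 8 rose and 2 fell. The class median was 0.43 on the log2 scale, and its neighbourhoods had a median of -0.23. ALG8, which adds the second glucose, rose the most, at 1096, 1064 and 1035 in the knockout libraries, against 660.1, 751 and 745 in the control libraries (log2 fold change 0.57, SE 0.08, adjusted p = 3.25e-06). ALG6, which adds the first glucose, read 293, 316 and 277 in the knockout libraries, against 215, 193 and 219 in the control libraries. ALG5, which makes the dolichol-phosphate-glucose that both use, rose by 0.44, DPAGT1, which starts the chain, by 0.43, and the mannosyltransferases ALG3 and ALG12 by 0.41 and 0.46 on the log2 scale. All 6 higher members separated the groups in every library. Another mannosyltransferase, ALG9, went the other way, at 187, 179.7 and 256 in the knockout libraries, against 307, 256 and 322 in the control libraries, with the highest knockout library just above the lowest control library. ALG10B, which adds the last glucose, read 392, 338 and 346 in the knockout libraries, against 575, 529.9 and 504 in the control libraries (log2 fold change -0.58, adjusted p = 7.97e-05), but it has a near-identical copy, ALG10, between which reads may be split. Summed over the class, the level was 1515 ± 61.0 per kilobase in knockout cells and 1149 ± 49.0 in control cells (SD, n = 3). ALG9 lost its call without knockout 2 (-0.42) or control 3 (-0.45). After removal of the neighbourhood median, ALG6 was at 0.16 (adjusted p = 0.766), ALG12 at 0.082 (adjusted p = 1), ALG9 at -0.30 (adjusted p = 0.195) and ALG10B at -0.056 (adjusted p = 1), while ALG8, ALG5, DPAGT1 and ALG3 kept their calls.

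The promoter of ALG12 is shown because it holds an endoplasmic reticulum stress element (CCAAT, a spacer and CCACG, in capitals), the sequence through which the unfolded protein response is known to act. It is the 150 bases before the RefSeq start (chr22:49918439-49918588, minus strand).
ALG12: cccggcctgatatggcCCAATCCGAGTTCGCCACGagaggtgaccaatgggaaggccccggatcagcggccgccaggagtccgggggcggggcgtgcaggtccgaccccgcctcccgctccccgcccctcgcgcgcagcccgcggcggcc
This element was found, on either strand, in 1 of 34 higher and 0 of 28 lower members, beside 0.143% of the promoters of tested genes. ALG12 itself rose modestly, at 368 ± 36.4 in knockout cells and 267 ± 13.9 in control cells. Its exons share 3.14% of their bases with the protein-coding gene CRELD2 on the opposite strand, and which gene the element serves was not tested. They also share 39.0% with a long noncoding RNA gene on that strand. The sources used here do not state if counting used the strand. The same limit touches B4GALT3 (28.7%), ALG9 (24.4%, a gene on the same strand), DPAGT1 (21.3%) and, at about the 20% used as a limit, MAN2C1, the members with the widest overlaps among 35 that share any exon base with another annotated gene.

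Dolichol-phosphate-mannose synthase, which supplies mannose to N-glycans, O-mannose glycans and GPI anchors, was lower. Its catalytic subunit DPM1 read 922, 887 and 853 in the knockout libraries, against 1041, 1016 and 1091 in the control libraries (log2 fold change -0.24, SE 0.07, adjusted p = 0.0113). The regulatory subunit DPM2 read 629.5, 452 and 519 in the knockout libraries, against 623, 864 and 756 in the control libraries, with knockout 1 inside the control range (log2 fold change -0.49, adjusted p = 0.00192). Both genes lie in neighbourhoods that were lower too, with medians of -0.42 and -0.51, and with these removed they were at 0.17 (adjusted p = 0.085) and 0.028 (adjusted p = 1). DPM1 also lost its call without control 3 (-0.21).

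Of the catalytic subunits of oligosaccharyltransferase, STT3A, which acts as proteins enter the endoplasmic reticulum, rose slightly and STT3B, which acts on sites left over, did not pass. STT3A read 4421, 4321 and 4057 in the knockout libraries, against 3612, 3884 and 3840.0 in the control libraries (log2 fold change 0.17, adjusted p = 0.0184). STT3B had the highest level of all members, 2673 ± 49.4 per kilobase in knockout cells and 2869.8 ± 55.6 in control cells, and a log2 fold change of -0.10 (95% interval -0.21 to 0.01, adjusted p = 0.19); it passed with upper-quartile scaling (-0.14). The call of STT3A ended without knockout 1 (0.15), knockout 2 (0.17) or control 1 (0.14) and with upper-quartile scaling (0.14), and with the neighbourhood median removed STT3A was at -0.16 (adjusted p = 0.0457) and STT3B at -0.39 (adjusted p = 4.18e-06). All 7 partner subunits that were tested rose, by a median of 0.30 on the log2 scale, in neighbourhoods with a median of 0.13. Over all tested genes 47.3% were higher and the median was 0.14. TMEM258 averaged 1762 ± 332 in knockout cells and 1176 ± 90.5 in control cells, DDOST 7316 ± 243 in knockout cells and 5169 ± 146 in control cells and RPN2 9324 ± 154 in knockout cells and 7369 ± 445 in control cells (SD, n = 3 each).

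Among enzymes that trim and branch N-glycans in the endoplasmic reticulum and Golgi, 4 of 7 rose and 3 fell, and the class sum was 1568 ± 43.1 per kilobase in knockout cells and 1547 ± 31.6 in control cells. MGAT1, which starts hybrid and complex N-glycans, rose by 0.40 on the log2 scale. MGAT4B, which adds one of the outer branches, read 1772, 1634 and 1745 in the knockout libraries, against 1063, 1246 and 1070.2 in the control libraries (log2 fold change 0.61, SE 0.07, adjusted p = 4.33e-07). MGAT5 makes the beta-1,6 branch that is commonly extended with N-acetyllactosamine. It fell, at 1687, 1857 and 1959 in the knockout libraries, against 2658, 2590.1 and 2589 in the control libraries (log2 fold change -0.51, SE 0.06, adjusted p = 7.78e-07). The groups thus separated in opposite directions for these branching enzymes, and MGAT5 lies among genes with a median of 0.25. The alpha-mannosidase II genes split as well. MAN2A1 fell to 1011, 1062 and 1028 in the knockout libraries, against 1836, 1632 and 1684 in the control libraries (log2 fold change -0.73), while its paralogue MAN2A2 rose by 0.19. Of the earlier-acting mannosidases, MAN1B1 read 1440.4, 1482 and 1624 in the knockout libraries, against 1933, 2189.5 and 2209.9 in the control libraries, a fall, and MAN1A2 rose by 0.27. MAN2A2 lost its call without knockout 3 (0.15) or control 1 (0.15). With the neighbourhood median removed, MAN2A1 was at -0.13 (adjusted p = 0.235), MGAT1 at 0.032 (adjusted p = 1) and MAN1A2 at -0.16 (adjusted p = 0.206).

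The galactose and N-acetyllactosamine chains are built by enzymes of which 3 of 5 rose, 1 fell and 1 did not pass. B3GNT2, the main enzyme that lengthens poly-N-acetyllactosamine, fell the most. It lies on chromosome 2, 62196113 to 62224731 (hg38, ENSG00000170340) and read 2000.1, 2114 and 2078 in the knockout libraries, against 3902, 3894 and 4161 in the control libraries, a 1.93-fold lower level (log2 fold change -0.95, SE 0.06, adjusted p = 1.04e-11). No knockout library came near the control range, and with the neighbourhood median of -0.44 removed B3GNT2 was still lower, at -0.51 (adjusted p = 2.28e-07). Per length it ranked the fifth among members in knockout cells and the second in control cells, at 721 ± 20.3 per kilobase in knockout cells and 1393 ± 53.2 in control cells. The family member B3GNT9 (chromosome 16, 67148105 to 67151214) was low and rose, at 78.2, 105 and 94.3 in the knockout libraries, against 21.5, 28.2 and 30.7 in the control libraries (log2 fold change 1.76, SE 0.26, adjusted p = 1.11e-05). The galactosyltransferases B4GALT2 and B4GALT3, which add galactose to N-acetylglucosamine, rose. B4GALT2 read 1247, 1213 and 1036 in the knockout libraries, against 815, 735 and 821 in the control libraries, and B4GALT3 read 952, 986 and 926 in the knockout libraries, against 859, 845 and 782 in the control libraries. B4GALT3 lost its call without knockout 1 (0.21), knockout 2 (0.18), control 2 (0.22) or control 3 (0.16), with upper-quartile scaling (0.17) and with the edgeR test (0.19), and was at -0.24 (adjusted p = 0.0275) with the neighbourhood median removed. GCNT2, which makes branched I antigen chains, was at 42.4 in knockout and 21.3 in control cells and just missed the threshold (log2 fold change 0.91, 95% interval 0.17 to 1.65, adjusted p = 0.051). It passed with DESeq2 (0.99), edgeR (0.97), a pseudocount of 5 (0.80), no filter, adjustment over the table only, without knockout 3 (1.19), and with the trend of gene length (1.08) or of neighbours (1.45) removed. The summed level of the class was 1312 ± 40.2 per kilobase in knockout cells and 1827 ± 52.8 in control cells, most of it from B3GNT2.

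Sialyltransferases placed in the capping class, which cap chains with sialic acid, fell more often than they rose: 5 of 7 were lower and 2 higher. The class median was -0.56 on the log2 scale, while its neighbourhoods had a median of 0.27. The sialyltransferases ST3GAL5, which rose by 0.60, and ST8SIA5, which was not tested, are counted with the glycolipid enzymes instead. ST3GAL1, which caps core 1 O-glycans, had the largest fall among the 75 tested members. It lies on chromosome 8, 133454848 to 133571940 (ENSG00000008513) and read 741, 904 and 1044 in the knockout libraries, against 1883, 2013 and 2122 in the control libraries, a 2.26-fold lower level (log2 fold change -1.17, SE 0.09, adjusted p = 6.15e-10). The knockout libraries differed among themselves, knockout 1 being lowest and knockout 3 highest, and all 3 lay under the control range. ST3GAL6, which makes alpha-2,3-sialylated N-acetyllactosamine of the kind used in selectin ligands, had the largest rise among them. It lies on chromosome 3, 98732236 to 98821201 (ENSG00000064225) and read 198, 188 and 173 in the knockout libraries, against 48.0, 41.8 and 50.5 in the control libraries, a 3.92-fold higher level (log2 fold change 1.97, SE 0.19, adjusted p = 2.38e-08). ST3GAL4, which acts on the same kind of chain, fell, at 759, 703 and 688 in the knockout libraries, against 1138, 1167 and 1138 in the control libraries (log2 fold change -0.68, adjusted p = 1.3e-07). Per length ST3GAL4 remained above ST3GAL6, at 161 ± 8.33 per kilobase in knockout cells and 257 ± 3.71 in control cells against 29.6 ± 2.02 per kilobase in knockout cells and 7.44 ± 0.715 in control cells for ST3GAL6. ST3GAL2 rose by 0.26. Over the 5 ST3GAL genes in the table, with ST3GAL5 included, the summed level was 441, 448 and 452 per kilobase in the knockout libraries, against 595, 614 and 632 in the control libraries. The rises were thus smaller in summed level than the falls.

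Other sialic acid linkages were lower too. ST6GAL1, the alpha-2,6-sialyltransferase of N-glycans and the member of this class with the highest level, averaged 3534 ± 149.9 in knockout cells and 4390.0 ± 236 in control cells (log2 fold change -0.31, adjusted p = 0.000154). ST8SIA4, a polysialic acid synthase, averaged 648 ± 8.49 in knockout cells and 955 ± 20.5 in control cells (log2 fold change -0.56). ST6GALNAC3 was low, at 40.6, 42.7 and 43.0 in the knockout libraries, against 74.6, 62.2 and 75.3 in the control libraries, with no overlap. ST6GALNAC3 lost its call without control 1 (-0.69) or control 3 (-0.68). After removal of the neighbourhood median ST6GAL1 was at 0.10 (adjusted p = 0.328) and ST3GAL2 at -0.11 (adjusted p = 0.538), while ST3GAL1, ST3GAL4, ST8SIA4, ST6GALNAC3 and ST3GAL6 kept their calls.

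Genes of the proteins that bind or carry sialylated glycans were mixed: of 9 tested, 3 rose and 6 fell. SIGLEC6, a sialic acid binding lectin, averaged 10.1 ± 4.24 in knockout cells and 391 ± 22.2 in control cells (log2 fold change -5.23). CD33, another such lectin, averaged 990.0 ± 35.3 in knockout cells and 435 ± 53.6 in control cells (SD, n = 3 each).

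Fucosyltransferases with FUT names in the table were 3, of which FUT1 rose, FUT11 fell and FUT4 did not pass. The O-fucosyltransferases POFUT1 and POFUT2, outside the rule, rose by 0.26 and 0.36 on the log2 scale. FUT1, which makes the H antigen, read 179, 218 and 183 in the knockout libraries, against 92.0, 128 and 112 in the control libraries (log2 fold change 0.81, SE 0.17, adjusted p = 0.00054). FUT11 read 1091, 1098 and 877 in the knockout libraries, against 1553, 1515 and 1463 in the control libraries (log2 fold change -0.57, SE 0.08, adjusted p = 4.68e-06), and the groups did not overlap for either gene. FUT4, which makes the Lewis x antigen CD15 of myeloid cells, averaged 1559 ± 65.6 in knockout cells and 1388 ± 114 in control cells (log2 fold change 0.17, 95% interval 0.023 to 0.32, adjusted p = 0.0691). FUT4 passed without control 2 (0.22), with adjustment over the table only, with the gene length trend removed (0.22) and with the neighbourhood median of -0.46 removed, at 0.63 (adjusted p = 1.97e-07).

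Enzymes of mucin-type O-glycans within the rule were mostly higher: 7 of 9 rose and 2 fell. C1GALT1, the core 1 enzyme, is outside the rule and fell, at 779 ± 16.3 in knockout cells and 952 ± 103 in control cells. Its log2 fold change was -0.28 (adjusted p = 0.00902), in a neighbourhood with a median of 0.34. The class median was 0.45 on the log2 scale, in neighbourhoods with a median of -0.19. The GALNT enzymes start these chains by adding N-acetylgalactosamine to serine or threonine. GALNT2 (chromosome 1, 230057990 to 230282124) rose the most, at 3424, 3758 and 3674 in the knockout libraries, against 2074, 2247 and 1891 in the control libraries (log2 fold change 0.81, SE 0.07, adjusted p = 1.25e-09). GALNT7, which prefers partly glycosylated peptides, read 2607, 2530.0 and 2518 in the knockout libraries, against 1618, 1518 and 1627 in the control libraries. GALNT14 read 296, 374 and 303 in the knockout libraries, against 236, 215 and 210.1 in the control libraries, and GALNT6 read 1257, 1189.6 and 1259.7 in the knockout libraries, against 816, 903 and 863 in the control libraries. In these 4 genes every knockout library was above every control library. GALNT11 and GALNT18 rose by 0.45 and 0.39 on the log2 scale, and GCNT1, which makes the core 2 branch, by 0.37. GALNT1 had the highest level of the family, 758 ± 39.8 per kilobase in knockout cells and 901 ± 49.7 in control cells, and it fell (log2 fold change -0.25), as did GALNTL6 (-0.27). Over the 8 GALNT genes the summed level was 2522, 2511 and 2435 per kilobase in the knockout libraries, against 2121, 2098 and 2108 in the control libraries, with no overlap between the groups. GCNT1 lost its call without knockout 1 (0.36), knockout 2 (0.28), control 1 (0.32), control 2 (0.40) or control 3 (0.41), with upper-quartile scaling (0.34) and with no filter (0.37), and it has a pseudogene copy in the table, GCNT1P3. All 7 higher members kept their calls with the neighbourhood median removed, while GALNT1 was at 0.0057 (adjusted p = 1) and GALNTL6 at -0.0059 (adjusted p = 1).

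The O-mannose enzymes, which modify dystroglycan and related proteins, all rose, 3 of 3, in neighbourhoods with a median of 0.32. B4GAT1, which adds the glucuronic acid on which matriglycan is built, read 309, 315 and 303 in the knockout libraries, against 191, 141 and 195 in the control libraries (log2 fold change 0.83, SE 0.14, adjusted p = 5.7e-05). POMGNT1 and POMGNT2 add N-acetylglucosamine to O-mannose. POMGNT1 read 926, 782 and 708 in the knockout libraries, against 645, 569 and 602 in the control libraries, and POMGNT2 read 657, 641 and 653 in the knockout libraries, against 472, 590.2 and 498 in the control libraries. The groups did not overlap for any of these genes. POMGNT2 lost its call without control 1 (0.26), and POMGNT1 was at 0.08 (adjusted p = 1) with the neighbourhood median removed.

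OGT, the single enzyme that adds O-linked N-acetylglucosamine to nuclear and cytosolic proteins, fell. It read 6448, 6988 and 7412 in the knockout libraries, against 9779, 9422 and 8883 in the control libraries (log2 fold change -0.43, SE 0.06, adjusted p = 3.94e-06). OGA, which removes the same sugar, fell as well, at 1592 ± 33.0 in knockout cells and 2941 ± 151 in control cells (log2 fold change -0.88). Both lie among genes that were lower, with neighbourhood medians of -0.31 and -0.66, and OGT was at -0.12 (adjusted p = 0.245) with that median removed. Among the O-fucose, O-glucose and core 1 list, to which OGA was assigned, 5 of 7 rose and 2 fell. MFNG, which extends O-fucose on Notch, averaged 2960.2 ± 156 in knockout cells and 1884 ± 122 in control cells, and B3GLCT, which adds glucose to O-fucose, 278 ± 24.8 in knockout cells and 198 ± 20.5 in control cells.

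Glycosaminoglycan chains start from a linker of xylose, galactose and glucuronic acid, and all 3 linker enzymes of the rule rose. B3GAT3, which adds the glucuronic acid, read 788, 898 and 825 in the knockout libraries, against 616, 545 and 527 in the control libraries (log2 fold change 0.57, adjusted p = 1.5e-05). B4GALT7, which adds the first galactose, read 362, 363 and 351 in the knockout libraries, against 285, 245 and 284 in the control libraries, and B3GALT6, which adds the second, read 618, 757 and 662 in the knockout libraries, against 582, 561 and 530.2 in the control libraries. The groups did not overlap for these 3 genes, but all 3 lie among genes with medians above 0 (0.34, 0.37 and 0.44), and with these removed none passed, at 0.23 (adjusted p = 0.0798), 0.033 (adjusted p = 1) and -0.16 (adjusted p = 0.385). B4GALT7 lost its call without control 2 (0.33), and B3GALT6 without knockout 2 (0.20), control 2 (0.28) or control 3 (0.24). XYLT1, which adds the xylose that starts the linker and is outside the families of the rule, fell, at 104 ± 12.2 in knockout cells and 668 ± 26.5 in control cells (log2 fold change -2.68, adjusted p = 1.75e-13). Its paralogue XYLT2 fell too (log2 fold change -0.47, adjusted p = 1.15e-05). Per kilobase XYLT2 was at 184 in knockout and 254 in control cells, and XYLT1 at 9.4 in knockout and 60.7 in control cells. Both lie among genes that were lower, with neighbourhood medians of -0.71 for XYLT1 and -0.67 for XYLT2. Of the 8 partner genes tested, 5 rose and 3 fell. FAM20B, which phosphorylates the xylose, averaged 2013 ± 22.1 in knockout cells and 1151 ± 48.1 in control cells, and CSGALNACT2, which starts chondroitin chains, 456 ± 23.1 in knockout cells and 876 ± 58.4 in control cells.

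Of the heparan sulfate enzymes, 2 of 3 rose and 1 fell. NDST1, which removes acetyl groups and adds N-sulfate, read 2729.7, 2976 and 2942 in the knockout libraries, against 1815, 2356 and 2263 in the control libraries (log2 fold change 0.43, adjusted p = 8.18e-05). HS2ST1, which adds 2-O-sulfate, read 1607, 1846 and 1496 in the knockout libraries, against 1327, 1203 and 1302 in the control libraries (log2 fold change 0.36, adjusted p = 0.000459). EXT2, part of the chain polymerase, read 1511, 1558 and 1486 in the knockout libraries, against 1650.4, 1682 and 1791 in the control libraries, a small fall (log2 fold change -0.17, adjusted p = 0.0416). EXT2 lost its call without knockout 1 (-0.17), knockout 2 (-0.19), knockout 3 (-0.15), control 2 (-0.18) or control 3 (-0.13), and NDST1 was at 0.18 (adjusted p = 0.14) with the neighbourhood median removed. HPSE, the heparanase that cuts these chains, averaged 434 ± 27.9 in knockout cells and 1999 ± 102 in control cells (log2 fold change -2.20).

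In chondroitin and dermatan sulfate synthesis, 3 of 5 members rose and 2 fell, and the member with the highest level fell. CHST11, the main chondroitin 4-O-sulfotransferase, lies on chromosome 12, 104455295 to 104762014 (ENSG00000171310) and read 2221, 2251 and 2380.3 in the knockout libraries, against 4341, 4419 and 4328 in the control libraries, a 1.91-fold lower level (log2 fold change -0.93, SE 0.06, adjusted p = 8.97e-12). The libraries of each group were close together and far from the other group, in a neighbourhood with a median of 0.28. CHST12, which adds the same sulfate, rose by 0.29 on the log2 scale. Per length CHST12 was at 31.7 ± 2.62 per kilobase in knockout cells and 25.8 ± 0.996 in control cells. CHST11 was at 352 ± 13.0 per kilobase in knockout cells and 672 ± 7.54 in control cells. The lengths used were 16143 bases for CHST12 and 6492 for CHST11. Before division by length CHST12 averaged 512 in knockout and 417 in control cells, and CHST11 2284 in knockout and 4363 in control cells. CHSY3, a chondroitin polymerase, read 79.2, 84.4 and 68.2 in the knockout libraries, against 134, 116 and 124 in the control libraries. CHST7, a 6-O-sulfotransferase, read 416, 504 and 533 in the knockout libraries, against 296, 314 and 441 in the control libraries, with knockout 1 under control 3. CHST14, the dermatan 4-O-sulfotransferase, read 263, 349 and 293 in the knockout libraries, against 185, 238 and 232 in the control libraries, without overlap. CHST7 lost its call without control 1 (0.37), CHST14 without knockout 2 (0.35) or control 1 (0.35) and CHST12 without knockout 1 (0.23) or control 1 (0.26). With the neighbourhood median removed CHST14 was at -0.11 (adjusted p = 1) and CHST12 at -0.084 (adjusted p = 1), while CHST11 and CHSY3 were lower still. The core proteins that carry these chains went both ways, 5 higher and 4 lower of 9 tested. The syndecan SDC3 averaged 5.37 ± 3.04 in knockout cells and 95.1 ± 15.0 in control cells, and the syndecan SDC1 24.4 ± 7.27 in knockout cells and 109.6 ± 12.0 in control cells. CD74, the invariant chain, which can carry chondroitin sulfate, averaged 1269.5 ± 128 in knockout cells and 543 ± 16.4 in control cells.

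CHST4, which adds 6-O-sulfate to N-acetylglucosamine in selectin ligands, was the only member of the keratan sulfate and HNK-1 class in the table. It rose at a low level, 169, 118 and 126 in the knockout libraries, against 78.7, 84.6 and 100.1 in the control libraries (log2 fold change 0.63, SE 0.19, adjusted p = 0.0122). It lost its call without knockout 1 (0.48) or control 1 (0.56) and was at 0.27 (adjusted p = 0.631) with the neighbourhood median removed.

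Genes for GPI anchor synthesis were mostly lower: 8 of 10 fell and 2 rose, with a median log2 fold change of -0.41, and the neighbourhoods of these genes had a median of -0.37. PIGZ, which can add the last mannose, read 191, 193 and 176 in the knockout libraries, against 353, 273 and 337 in the control libraries (log2 fold change -0.77, SE 0.13, adjusted p = 6.07e-05). PIGU, a subunit of the GPI transamidase that attaches proteins to the anchor, read 364, 343 and 282 in the knockout libraries, against 538, 499.7 and 491 in the control libraries (log2 fold change -0.63). PIGV, which adds the second mannose, read 191, 153 and 122 in the knockout libraries, against 204, 245 and 227 in the control libraries. PIGL, which acts at the second step of the pathway, read 139, 159.9 and 159 in the knockout libraries, against 196, 205 and 225 in the control libraries. In all 4 genes every knockout library was under every control library. The other lower members were PIGQ of the enzyme for the first step (log2 fold change -0.44), PIGX, a partner of the first mannosyltransferase (-0.39), PIGS of the transamidase (-0.25) and PIGN, which adds ethanolamine phosphate (-0.22). PIGT, also of the transamidase, and PIGH, also of the first step, rose by 0.26 and 0.30, so subunits of one complex differed in direction.

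Over the class the summed level was 1037, 1024 and 984 per kilobase in the knockout libraries, against 1220.3, 1210.5 and 1234 in the control libraries. After removal of the neighbourhood median 4 of the 8 lower members passed in the same direction (PIGZ, PIGU, PIGV and PIGL) and the class median was near 0, at 0.00096, while PIGS was at 0.33 (adjusted p = 0.000144), PIGX at 0.058 (adjusted p = 1), PIGQ at 0.056 (adjusted p = 1), PIGN at -0.054 (adjusted p = 1) and PIGH at 0.12 (adjusted p = 1). PIGH lost its call with upper-quartile scaling (0.26), DESeq2 (0.30), no filter (0.30) and without knockout 1 (0.26), knockout 2 (0.27), control 1 (0.33), control 2 (0.26) or control 3 (0.31), PIGN without knockout 1 (-0.19), knockout 2 (-0.22) or control 1 (-0.16), PIGL without knockout 1 (-0.39) or control 3 (-0.40) and PIGV without knockout 3 (-0.39) or control 2 (-0.49). Of the 5 tested partner and remodelling genes, 3 rose and 2 fell, with PGAP1, which remodels the anchor lipid, at 277 ± 15.8 in knockout cells and 567 ± 70.3 in control cells, GPAA1 of the transamidase at 3811 ± 68.0 in knockout cells and 2450.3 ± 218 in control cells and PGAP3 at 164 ± 15.7 in knockout cells and 113 ± 25.7 in control cells. The written list of GPI-anchored blood cell proteins had 8 higher and 2 lower genes of 10, with a median log2 fold change of 1.07. It includes GGT1 (1099.7 ± 48.0 in knockout cells and 144 ± 14.9 in control cells), which is held by a transmembrane segment and not by GPI, and without it 7 of 9 were higher and the median was 1.03. CD109 averaged 524 ± 38.1 in knockout cells and 3747 ± 162 in control cells and BST1 607 ± 53.0 in knockout cells and 257 ± 17.0 in control cells (SD, n = 3 each).

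**Figure D4:**
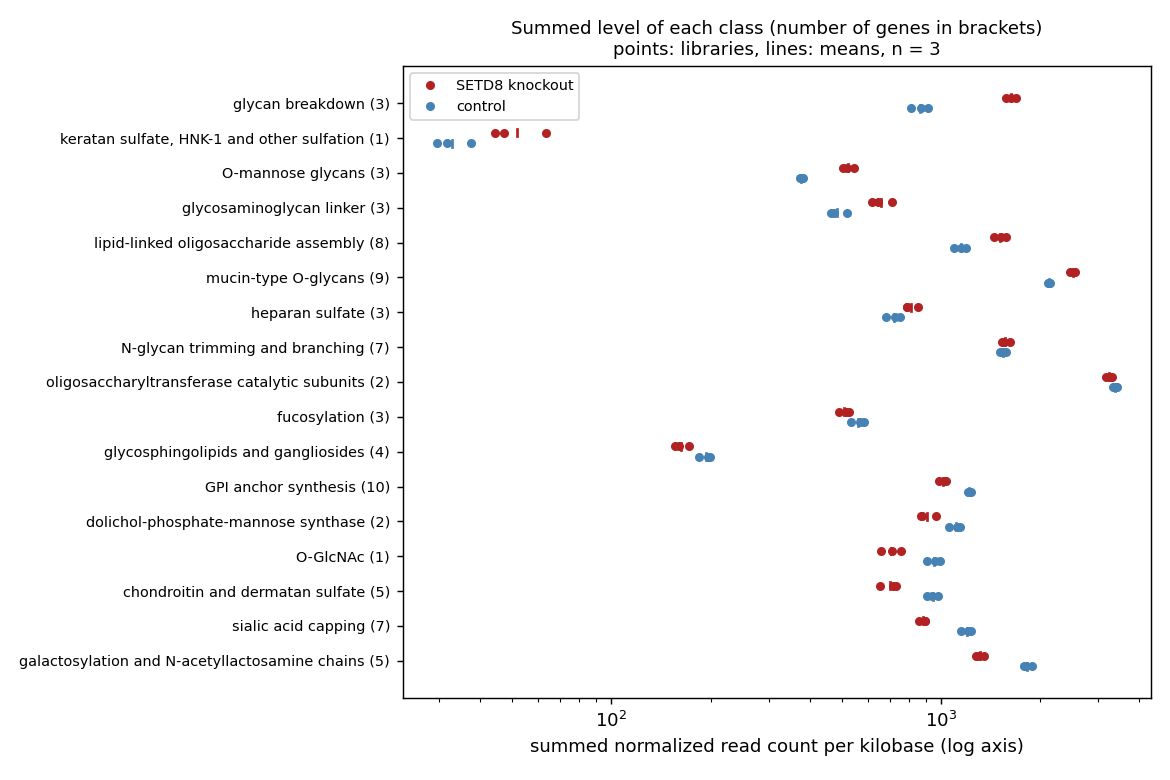
Summed normalized read count per kilobase (log axis) of the members of each class in each library, knockout above and control below, with lines at the means (n = 3 each). Sialic acid capping, GPI anchor synthesis and galactosylation lie lower in knockout cells, and glycan breakdown, O-mannose glycans and lipid-linked oligosaccharide assembly higher.

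Enzymes of glycolipid chains went both ways, with 1 of 3 tested members higher and 2 lower. ST3GAL5, which makes the ganglioside GM3, read 662, 668 and 634 in the knockout libraries, against 462, 419 and 415 in the control libraries (log2 fold change 0.60, SE 0.09, adjusted p = 1.28e-05). B3GNT5, which starts lacto-series glycolipids, read 862, 864 and 826 in the knockout libraries, against 1118, 1169 and 1055 in the control libraries. B3GALT4, which makes GM1, was low, at 60.5, 29.8 and 38.3 in the knockout libraries, against 71.5, 71.0 and 66.4 in the control libraries. The groups did not overlap for these 3 genes. B3GALT4 lost its call without knockout 2 (-0.52), knockout 3 (-0.70), control 1 (-0.73), control 2 (-0.73) or control 3 (-0.78) and with DESeq2 (-0.70), and B3GNT5 was at -0.039 (adjusted p = 1) with the neighbourhood median removed. ST8SIA5, a sialyltransferase of complex gangliosides, was under the minimum mean of 10 and was not tested, with 6 reads over the knockout libraries and 32 over the control libraries. The authors' deposited table gives ST8SIA5 a log2 fold change of -2.42 (adjusted p = 0.0842) and ST3GAL1 one of -1.16. Of the 9 tested glycolipid partners, 6 rose and 2 fell. GBGT1, which makes the Forssman glycolipid in other mammals, averaged 20.3 ± 6.97 in knockout cells and 207 ± 8.85 in control cells (log2 fold change -3.34). B3GALNT1, which makes globoside, averaged 1187 ± 10.9 in knockout cells and 742 ± 24.1 in control cells (SD, n = 3 each).

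Of the enzymes that take glycans apart, 2 rose and 1 fell. MAN2B1, the lysosomal alpha-mannosidase, lies on chromosome 19, 12646511 to 12666742 (ENSG00000104774) and read 6699.8, 7008 and 7362 in the knockout libraries, against 2855, 3159 and 3121 in the control libraries, a 2.31-fold higher level (log2 fold change 1.21, SE 0.06, adjusted p = 2.48e-13). No library of one group came near the other group. Per length MAN2B1 was the second highest member in knockout cells and the seventh in control cells, at 1307 ± 61.7 per kilobase in knockout cells and 567 ± 30.8 in control cells, in a neighbourhood with a median of 0.35. NEU1, the lysosomal sialidase, read 1137, 1149 and 1046 in the knockout libraries, against 802, 974 and 877 in the control libraries (log2 fold change 0.33, adjusted p = 0.00201). MAN2C1, the cytosolic mannosidase, read 847, 855 and 916 in the knockout libraries, against 1064, 1137 and 1003 in the control libraries (log2 fold change -0.29, adjusted p = 0.00378). With the neighbourhood median removed MAN2B1 kept its call, while NEU1 was at 0.14 (adjusted p = 0.354) and MAN2C1 at -0.083 (adjusted p = 0.853). Among other lysosomal glycosidases and sulfatases 6 of 10 rose and 3 fell. FUCA1, a lysosomal fucosidase, averaged 251 ± 26.1 in knockout cells and 58.5 ± 13.1 in control cells (log2 fold change 2.10), and ARSB, an N-acetylgalactosamine sulfatase, 655 ± 68.8 in knockout cells and 288 ± 1.29 in control cells.

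The supply of sugar donors was measured by genes outside the enzyme families. All 6 tested genes of the written nucleotide sugar transport list rose, by a median of 0.35 on the log2 scale, in neighbourhoods with a median of 0.26. SLC35B2, which carries the sulfate donor PAPS, averaged 2086 ± 144 in knockout cells and 1283 ± 53.8 in control cells, SLC35A2, the UDP-galactose transporter, 636 ± 78.7 in knockout cells and 433 ± 13.3 in control cells, and SLC35C1, the GDP-fucose transporter, 572 ± 59.4 in knockout cells and 437 ± 73.9 in control cells. Of 14 nucleotide sugar synthesis genes 8 rose and 6 fell. PAPSS2, which makes PAPS, averaged 641 ± 51.0 in knockout cells and 265 ± 30.5 in control cells. FUK, the fucose kinase, averaged 358 ± 9.82 in knockout cells and 210.2 ± 44.2 in control cells, and TSTA3, a GDP-fucose synthesis enzyme, 1407 ± 9.43 in knockout cells and 844 ± 38.9 in control cells. In dolichol supply 4 of 5 rose and 1 fell. NUS1, a subunit of the enzyme that makes the dolichol chain, averaged 2297 ± 17.1 in knockout cells and 1515 ± 27.8 in control cells, MPDU1, which helps dolichol-linked sugars to be used, 759.6 ± 56.5 in knockout cells and 530.2 ± 10.5 in control cells, and DOLPP1, a dolichol phosphatase, 344 ± 21.8 in knockout cells and 532 ± 29.6 in control cells. Of 10 tested genes of glycoprotein folding quality control, 8 rose and 1 fell. CALR, the lectin chaperone calreticulin, averaged 31462 ± 1278 in knockout cells and 20425 ± 92.0 in control cells, LMAN2, a cargo lectin, 4196 ± 69.7 in knockout cells and 2516 ± 103 in control cells, and EDEM2, a mannosidase of glycoprotein degradation, 701 ± 50.6 in knockout cells and 452 ± 26.5 in control cells (SD, n = 3 each). Neighbourhood medians were -0.0078 for nucleotide sugar synthesis, 0.14 for dolichol supply and 0.14 for quality control. These lists were read against a table in which 47.3% of tested genes were higher and whose median log2 fold change was 0.14.

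**Figure D5:**
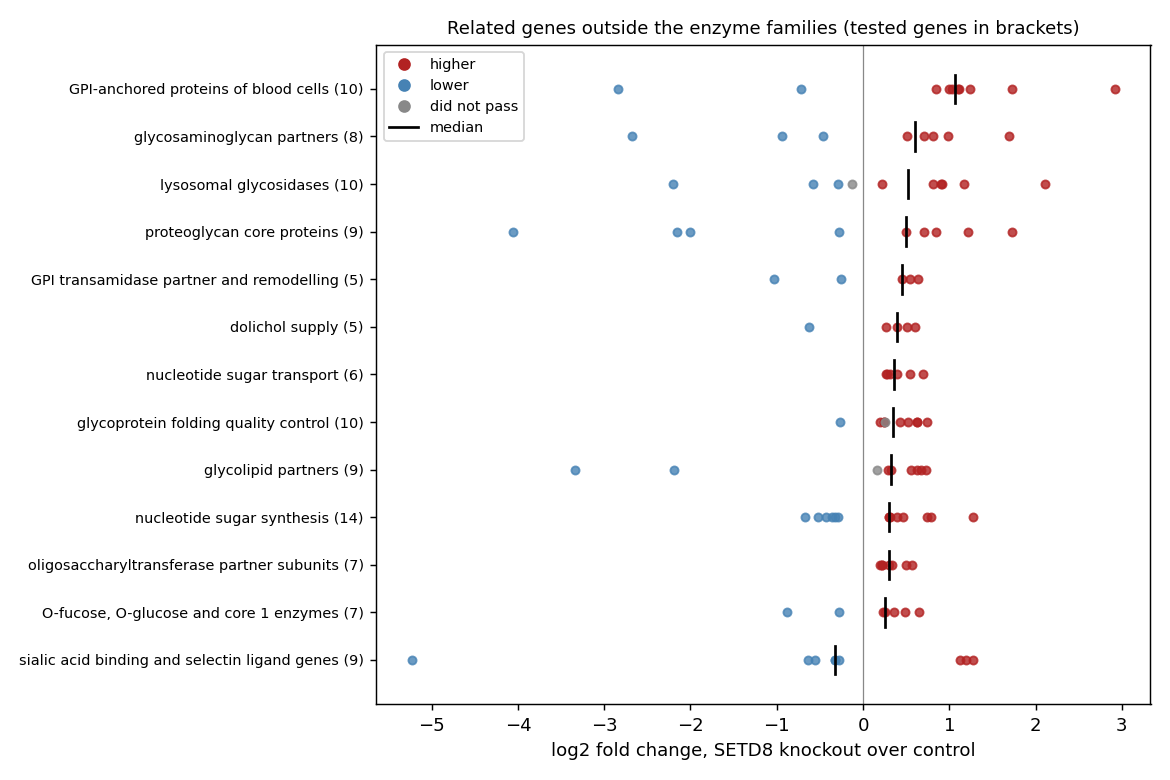
Log2 fold change (horizontal axis, knockout over control) of each tested gene in the lists of related genes with at least 2 tested genes, with the median as a black line. Every tested gene of the nucleotide sugar transport and oligosaccharyltransferase partner lists lies right of 0, and the proteoglycan core list runs from SDC3 at -4.05 to GPC5 at 1.73.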

How the data were processed

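Per the labels' protocols, messenger RNA of Kasumi-1 cells was captured on poly-T beads and a directional kit was used for sequencing libraries. HISAT2, DESeq2 and hg38 are named in the submitters' processing notes. Versions, the read counter and its strand setting are not stated there. Per the file headers, the table holds a signal for each library, the read counts normalized by a size factor, with log2 fold changes and p-values that the authors deposited. Dividing by what 1 read is worth gave whole numbers, within 0.001, for 100% of values, which is less certain in knockout 2 and control 3, where 1 read is worth 0.993 and 0.991. The p-values in the deposited table were adjusted by the authors over 19860 genes, as their adjusted values show. The authors' deposited table called 38 members higher and 28 lower at the same threshold. It lists only genes with an unadjusted p of at most 0.049998, and the share called over all of them was not counted here. These 2 counts are therefore no result about the members.

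Genes with a mean of at least 10 were tested with limma-trend in limma 3.58.1 under R 4.3.3. Values were taken as log2(value + 1), and the test was two-sided with Benjamini-Hochberg adjustment over 19860 genes; called means adjusted p below 0.05. The test was checked on simulated counts. Members, classes, related lists and tests were chosen with earlier results of these data known. Values of each library are given, per class, for up to 4 called members, those that changed most among members with a mean of 50 or more. They are also given for each called member of log2 fold change at least 1 in size. From related lists, means are given for up to 3 such genes, and for C1GALT1 and XYLT2 as well. Other members are named with their log2 fold change. Alternatives were edgeR 4.0.16 and DESeq2 1.42.0 on recovered reads, upper-quartile and TMM scaling, other filters and pseudocounts, a replicate block, each library left out, protein-coding genes only, removal of the trend with gene length and of the median of neighbours within 5 Mb, and, added after seeing the data, adjustment over the table only. Coordinates are those of the table, which are the same in GENCODE 29 for all 76 members. A few genes of the marker and related lists are not reported here.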

Additional observations from a re-analysis of the deposited data

How the results depend on the processing

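For the 75 tested members, TMM scaling, a pseudocount of 0.5 and a fit to protein-coding genes only changed no call, and scaling moved the median of all genes by under 0.1. Other scaling, tests, filters, pseudocounts and the block ended the call of 5 members in all. Without at least 1 library, 20 members lost their calls. With each library left out, 32 to 41 members were higher and 25 to 28 lower (41 and 31 with all libraries), 3 to 4 were higher and 1 to 2 lower by at least 1 on the log2 scale, and 3053 to 3281 of all genes were higher and 3057 to 3258 lower. With the neighbourhood median removed, 27 members were higher and 19 lower, 3 were lower by at least 1, and 2257 of all genes were higher in place of 3557. Members lower by at least 1 also numbered 2, in place of 1, with no filter and with the gene length trend removed. Without the neighbourhood median the sign changed for DPM1 (0.17), DPM2 (0.028), STT3A (-0.16), MAN1A2 (-0.16), PIGS (0.33), PIGX (0.058), PIGQ (0.056), GALNT1 (0.0057), B4GALT3 (-0.24), ST3GAL2 (-0.11), ST6GAL1 (0.10), B3GALT6 (-0.16), CHST14 (-0.11) and CHST12 (-0.084), and without the length trend for PIGN (0.042). These log2 fold changes rest on settings that remove part of the measured difference by construction. The replicate block gave 40 higher and 31 lower members (PIGH, at 0.30, lost its call). Same-numbered libraries correlated at 0.0086, -0.0033 and -0.050 in their deviations from the group means, so no shared deviation was seen. Whether they were prepared as pairs is not stated, and these correlations cannot decide it. Depth limits the lowest members (GCNT2, B3GALT4, ST6GALNAC3, B3GNT9), which had at most 105 normalized counts in any library.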
